A study of Mus musculus with 6 samples.

Results

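Untreated microglia labelled Cop1 KO were compared with untreated wild-type microglia by RNA-seq. Microglia are the resident macrophages of the brain, and here they were mouse cells kept in vitro. The comparison took the libraries whose treatment label is Loxp_untreated (Cop1 KO) or WT_untreated, 4 of the 6 libraries in the series, with 2 in each group. The other 2, wild-type cells given the bacterial product LPS, are not compared here. They entered the low-count filter that set the genes tested, the scaling factors and the estimate of spread. They also serve as a second measurement of wild-type cultures. The knockout label names loxP, the recombination site of conditional alleles, but the labels give neither the Cre driver nor a floxed control without Cre, and no age, sex or strain. Nothing in the labels says that the 2 libraries of a group came from separate animals or cultures. The p-values set the difference between groups against the spread within groups, estimated over all 6 libraries, and that spread may be technical.

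COP1 is the substrate-binding part of a ubiquitin ligase that works with DET1, DDB1 and a CUL4 scaffold, and Tribbles pseudokinases bring it to C/EBP transcription factors, which are then degraded. C/EBP beta and delta are basic leucine zipper activators that myeloid cells use for acute-phase, cytokine and granule genes. ETS-family factors of the PEA3 group (ETV1, ETV4 and ETV5) and JUN are other known substrates, and none of these protein-level events is itself visible in RNA.

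Levels are given in CPM, gene counts scaled to a common library size with TMM factors, and differences as log2 fold changes of knockout over wild type with their standard error (SE). Genes were called below an adjusted p of 0.05 (Benjamini-Hochberg) in edgeR's quasi-likelihood test over 15585 genes, with n = 2 libraries per group throughout. Values of a group are given for its library 1 and then its library 2, numbered in accession order. The libraries held 21158430 and 22553708 counts (wild type) and 21321184 and 21750443 counts (knockout). With such depth and replicates this close, 58.4% of all genes tested were called, 28.1% higher and 30.3% lower, and 49.5% of those 9101 calls had an absolute log2 fold change under 0.5. A call alone therefore says little about a gene, and the counts for each gene group below are to be read against these shares and against the median of all genes, a log2 fold change of −0.01.

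Cop1 (Entrez Gene 26374, chromosome 1, 159232156 to 159354872, GRCm38) was at 12.7 and 11.5 CPM in the wild-type libraries and 8.06 and 9.23 CPM in the knockout libraries. The groups did not overlap, which held for 39.5% of all genes tested in the lower direction. Most of the transcript signal remained in the libraries labelled Cop1 KO. The log2 fold change was −0.49 (SE 0.11, edgeR adjusted p = 0.00016). The difference did not pass with limma on log2 of the authors' normalised values plus 1 (−0.21, adjusted p = 0.075). Adding 1 shrinks differences between low values, so −0.21 is not on the scale of −0.49. Which exons lie between the loxP sites is not given in the sources used here, so reads outside the deleted part could not be separated. Of the 20 tested genes nearest to Cop1 on its chromosome, 1 rose and 8 fell (median −0.19). The riser was Tor3a, which encodes a torsin ATPase, at 90.1 and 90.1 CPM in wild type and 183 and 184 CPM in the knockout. The largest decreases near Cop1 were those of Tnr, Astn1 and Brinp2, genes of neural cells, of which Tnr went from 155 and 163 CPM to 10.9 and 11.3 CPM.

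Among the 10 genes of the ligase and its adaptors, 2 rose, 4 fell and 4 were not called (median −0.02). The Tribbles adaptors Trib1 and Trib2 moved furthest of the 10, in opposite directions. Trib1 (chromosome 15, 59648654 to 59657099), which encodes the adaptor that links COP1 to C/EBP proteins in myeloid cells, was at 34.6 and 34.7 CPM in wild type and 107 and 109 CPM in the knockout. Both knockout libraries were thus about alike and well above both wild-type libraries (3.11-fold, log2 1.64, SE 0.05, edgeR adjusted p = 1.2e-32). Trib2, a second adaptor, was at 15.7 and 16.2 CPM in wild type and at 1.44 and 0.883 CPM in the knockout (log2 −3.78, SE 0.22). The third, Trib3, which stress induces, stood at 0.38, called with all libraries but not without Cop1 KO library 2 (0.34) or wild-type library 2 (0.24), which left 1 ligase gene higher. Ddb1 and Cul4b, which encode the ligase's linker and scaffold, fell by 0.21 and 0.30 (Cul4b was not called with DESeq2, −0.22), while Det1 and Dda1 stood at 0.20 and −0.03 and were not called. With library sizes alone 1 ligase gene rose and 7 fell (median −0.22, against 0.06 with median-of-ratios factors), with Trib1 still higher (1.45) and Trib2 lower (−3.97). Ddb1 and Cul4b were below 0 under all 4 scalings of the counts, whereas Det1 was at −0.09 with pan-leukocyte scaling and Dda1 at 0.06 with median-of-ratios factors, both without a call.

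Transcripts of the C/EBP family were mostly higher. Of 6 members tested 5 rose and 0 fell (median 0.35; 1 fell without Cop1 KO library 1). Cebpz, counted with the family by its symbol, was the member not called with TMM factors. The granulocyte factor gene Cebpe had too few counts to test. Cebpb had 93.2 and 93.9 CPM in wild type and 142 and 126 CPM in the knockout, and Cebpd had 13.1 and 14.8 CPM against 28.9 and 25.5 CPM. Cebpd showed the largest difference of the family, 1.95-fold (log2 0.96, SE 0.09, edgeR adjusted p = 1.5e-14), followed by Ddit3, the stress-induced member, at 0.86 (27.4 and 29.6 CPM against 53.4 and 50.2 CPM). Cebpb rose by 0.51 (SE 0.04), with 20.7% of its exonic bases shared with Tmem189, which an unstranded library cannot separate. Cebpa, the lineage factor of myeloid cells, and Cebpg rose by only 0.19 and 0.18 and were at −0.10 and −0.10 when libraries were scaled on pan-leukocyte genes. Under that scaling 3 members rose and 2 fell, and Cebpd (0.67), Ddit3 (0.57) and Cebpb (0.22) kept their call.

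The 11 genes of other COP1 substrates had 4 higher and 4 lower with TMM factors (median 0.10). This split depended on the scaling, with 7 higher and 3 lower by median-of-ratios factors, 2 and 5 by library sizes alone (median −0.09) and 1 and 6 by pan-leukocyte scaling (median −0.19). The PEA3 group were the members that fell most. Etv4 was at 9.53 and 9.02 CPM in wild type and 0.72 and 1.24 CPM in the knockout (log2 −3.23, SE 0.25), Etv5 went from 49.5 and 51.8 CPM to 26.2 and 25 CPM (−0.98), and Etv1 fell by 0.87. Ets1, another ETS factor gene, and Junb, an AP-1 subunit gene, rose by 0.55 and 0.44 (Ets1 was at 0.26 without a call after pan-leukocyte scaling), and Jun stood at 0.06 and was not called. Genes that restrain the ERK cascade, several of which the cascade itself induces, were mostly lower as well: 8 of 10 fell and 2 rose (median −0.48). Spry4, a Sprouty inhibitor gene, was at 4.49 and 5.67 CPM in wild type and 0.45 and 0.574 CPM in the knockout (log2 −3.30, SE 0.33). Spry1 fell by 3.19 (24.4% of its exonic bases overlap another annotated gene) and Spry2 by 0.56, and the phosphatase genes Dusp6 and Dusp7 rose by 0.17 and 0.31 but were at −0.12 and 0.02 with pan-leukocyte scaling. Astrocyte markers fell in the same libraries, as given next, and their part in the decreases of Etv4, Spry1, Spry4 and Trib2 was not tested.

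The cultures differed in the cells they held RNA from. Summed over 15 astrocyte markers, the level was 806 and 810 CPM in wild type, 893 and 897 CPM in the LPS-treated wild type and 56.7 and 52.4 CPM in the knockout, and 13 of 14 tested markers fell (median −3.90). The 12 neuron markers summed to 81.0 and 83.2 CPM in wild type and 6.48 and 7.37 CPM in the knockout, with 10 of 11 tested markers lower. Oligodendrocyte lineage markers summed to less, from 298 and 292 CPM to 206 and 203 CPM: the precursor genes Olig1 and Pdgfra fell by 3.86 and 5.03, while Mbp, a myelin protein gene, rose by 0.53. Mural and fibroblast markers moved the other way, from 85.8 and 82.2 CPM to 158 and 153 CPM, with 7 of 8 tested markers higher. Pdgfra stands on this list too and was the 1 that fell. Microglia markers summed to 6329 and 6305 CPM in wild type and 9664 and 9627 CPM in the knockout, and 7 of 9 rose, while Tmem119 and P2ry12 stood at 0.14 each without a call. Siglech had too few counts to test, 2 and 0 in wild type and 0 and 0 in the knockout. In bulk RNA, fewer cells of a type and less RNA per cell cannot be told apart.

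**Figure D1:**
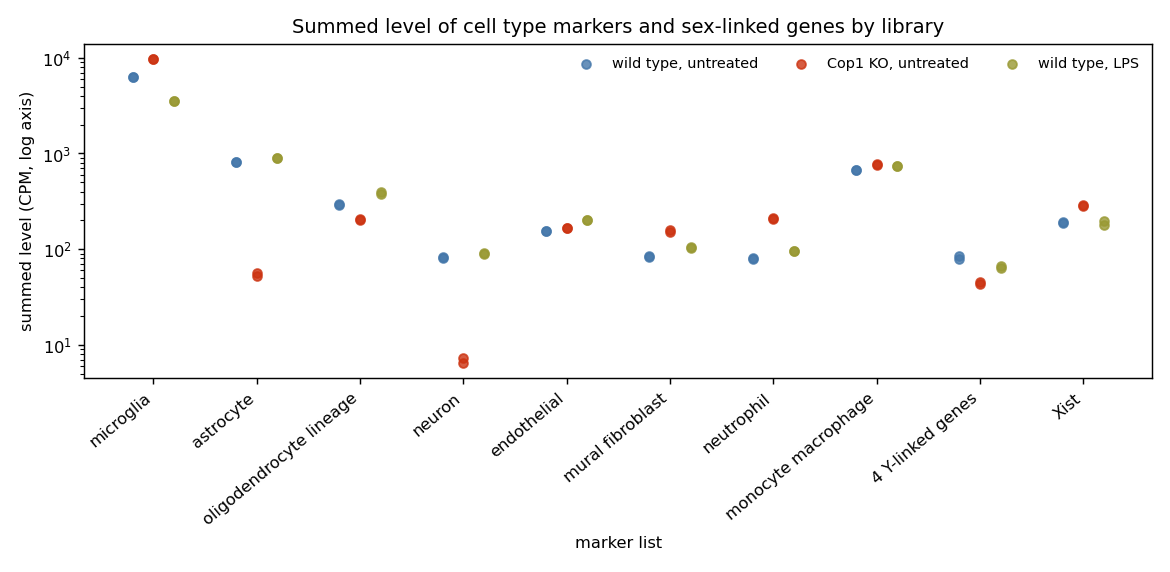
Summed level in CPM (log axis) of each cell type's marker genes, of 4 Y-linked genes and of Xist, with 1 point for each of the 6 libraries, coloured by group. Astrocyte and neuron sums in the 2 knockout libraries lie far below those of all 4 wild-type libraries, and the microglia sum lies above them.

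The sex-linked genes differed too. The 4 tested genes of the Y chromosome summed to 79.7 and 85.0 CPM in wild type and 45.0 and 43.2 CPM in the knockout, and Xist, the RNA of the inactive X, was at 186 and 192 CPM against 280 and 292 CPM. Both groups held reads of both kinds, so the mix of male and female cells, the genotype and the glial content of the cultures cannot be told apart in this design. Every scaling rests on a choice of reference genes. Each result was therefore also computed with libraries scaled on 25 pan-leukocyte genes, of which 23 rose with TMM factors (median 0.46). That scaling was set over all 6 libraries and did not level these genes between knockout and wild type. Under it 16 of them rose and 4 fell (median 0.17). Over all genes the median log2 fold change came to 0.08 with median-of-ratios factors, −0.20 with library sizes alone and −0.29 with pan-leukocyte scaling. It came to 0.07 on log2 of the authors' normalised values plus 1. The split of calls moved with it, from 4374 higher and 4727 lower with TMM to 5490 and 3913, 2319 and 7200, 1619 and 8610, and 5574 and 3192 in the same order. Directions of small differences are therefore relative to the scaling. The lists below are given with TMM and, where the sign of the median changes, with another scaling that changes it.

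Large differences were mostly decreases. Called increases of 4-fold or more made up 0.629% of all genes and such decreases 9.91%, and past 16-fold there were 7 increases (0.0449%) and 516 decreases (3.31%). These counts set no minimum level beyond the low-count filter. The decreases past 16-fold include barely detected genes, such as AW551984 (mean 0.3476 CPM), for which no finite SE was obtained. The size of such fold changes is uncertain, and the share of such genes was not counted. The 15 largest increases among genes averaging at least 5 CPM were Saa3, Fpr1, Ifi206, Ifi205, Mx1, Ifitm6, Cxcl10, Ifit3b, Ifit3, C3, Ltbp2, Acod1, Ifi209, Irf7 and Aoah. Saa3, a serum amyloid A gene that macrophages make in the acute-phase response, led with 8.49 and 7.79 CPM in wild type and 150 and 148 CPM in the knockout (18.3-fold). Fpr1, which encodes a receptor for bacterial formyl peptides, followed at 1.19 and 0.932 CPM against 18.6 and 18.5 CPM. Ifi206, Ifi205, Mx1, Cxcl10, Ifit3b, Ifit3, Ifi209 and Irf7 are known interferon-inducible genes, with Ifi206 at 3.34 (SE 0.13) and Irf7 at 2.40 (SE 0.04). Ltbp2, a matrix protein gene, was the exception among immune genes, with 3.33 and 2.68 CPM in wild type and 16.9 and 17.2 CPM in the knockout (log2 2.51, SE 0.15). Aoah, whose enzyme inactivates LPS by removing acyl chains, was at 13.5 and 15.1 CPM against 72.7 and 77.7 CPM (2.39, SE 0.07). Ifit3 with Ifit3b, and Ifi205, Ifi206 and Ifi209, are near-copies of each other, so values of single members are uncertain.

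The 15 largest decreases, by the same rule, were Itgb8, Shisal1, Gap43, Gfap, Ptprz1, Slc1a3, Adcyap1r1, Tmod2, Mlc1, Lrrn3, Scg3, Cplx2, Fzd3, Slc4a4 and Arhgef26. Their log2 fold changes ran from −6.94 to −5.15, and many are known from astrocytes or neurons: Mlc1 encodes a membrane protein of astrocyte endfeet, Slc4a4 a bicarbonate transporter, Gap43 a growth cone protein and Cplx2 a regulator of synaptic vesicle release. Mlc1 was at 47.4 and 46.7 CPM in wild type and 1.17 and 1.01 CPM in the knockout. Ptprz1, a receptor phosphatase gene of glia and their precursors, was at 56.8 and 58.5 CPM against 1.40 and 0.839 CPM. The rule kept only genes whose groups do not overlap, and over all genes the groups were apart for 37.9% in the higher and 39.5% in the lower direction. Steap4, a metalloreductase gene, had 80 counts over the wild-type libraries and 0 in the knockout, which is at least 23-fold lower against a floor of 3 counts over the group (lower 95% counting limit 18.2).

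**Figure D2:**
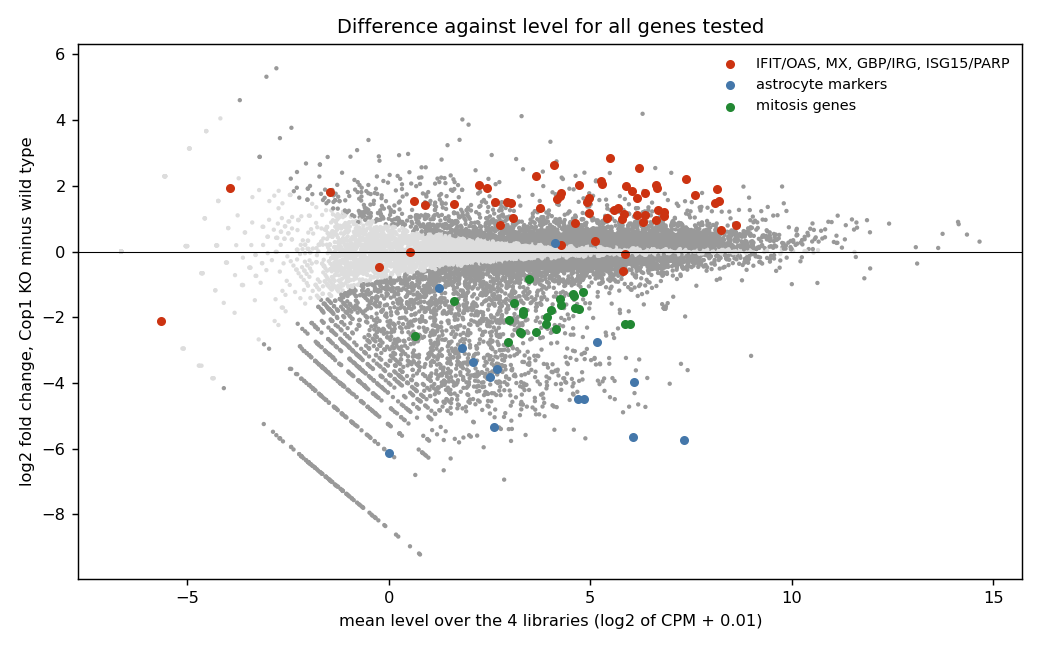
Log2 fold change (Cop1 KO minus wild type) of each tested gene against its mean level over the 4 libraries on a log2 axis, with dark points for called genes and light points for the rest. Antiviral genes (red) lie mostly above 0, all mitosis genes (green) and all but 1 of the astrocyte markers (blue) lie below it, and decreases outnumber increases among large differences.

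Sequence before the start sites of some of the genes that rose is shown because many of the leading increases belong to families known to be driven by interferon response elements or by C/EBP proteins. Windows from 250 bases before to 50 bases after each start (RefSeq, GRCm38.p6) were matched for 11474 of the tested genes, 14688 windows in all, and searched on both strands for 3 sets of letters, each on its own. These were GAAA, any 2 bases and GAAA (the core of an interferon response element), TTGC, any 2 bases and AA (most of a C/EBP site), and GGG, any 5 bases and CC (most of an NF-kB site). Stretches of 80 bases follow, 5′ to 3′ on the strand of the gene. Capitals mark only the interferon or C/EBP letters named for each gene, as the reverse complement where the match lies on the other strand. NF-kB letters are left in lower case, and the stretches of B2m (from −127 and −126) and C3 (from −33) hold them. Only stretches that hold a match are shown, so they do not represent the genes that rose. Isg15, B2m, Clec4e and Ptgs2 are not among the largest increases listed above. Irf7, Acod1 and Ltbp2 are among them, but held the NF-kB letters only and are not shown. The first 4 stretches carry the interferon letters. Ifit3 lies at chr19:34583355-34583434 (plus strand), with matches at −156 and −122 from the start. Isg15 lies at chr4:156200846-156200925 (minus strand), where overlapping matches run from −78 to −57. Cxcl10 lies at chr5:92349058-92349137 (minus strand, −213) and B2m at chr2:122147513-122147592 (plus strand, −139).
Ifit3: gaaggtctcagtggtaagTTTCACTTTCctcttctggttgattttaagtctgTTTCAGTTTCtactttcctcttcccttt
Isg15: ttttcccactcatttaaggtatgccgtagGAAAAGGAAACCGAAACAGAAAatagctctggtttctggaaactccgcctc
Cxcl10: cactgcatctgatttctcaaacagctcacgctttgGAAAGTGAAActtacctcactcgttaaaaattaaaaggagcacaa
B2m: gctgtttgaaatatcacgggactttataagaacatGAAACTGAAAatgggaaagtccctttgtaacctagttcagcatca

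The other 4 carry the C/EBP letters, and Saa3 carries both kinds. Saa3 lies at chr7:46715745-46715824 (minus strand), with the interferon letters at −125 and the C/EBP letters at −99. C3, the central complement gene, lies at chr17:57228138-57228217 (minus strand, −45). Clec4e, a lectin receptor gene, lies at chr6:123289894-123289973 (minus strand, −66), and Ptgs2, the inducible cyclooxygenase gene, at chr1:150099926-150100005 (plus strand, −69).
Saa3: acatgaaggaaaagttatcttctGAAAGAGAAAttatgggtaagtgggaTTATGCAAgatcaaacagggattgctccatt
C3: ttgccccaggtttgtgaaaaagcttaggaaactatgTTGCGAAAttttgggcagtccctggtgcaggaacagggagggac
Clec4e: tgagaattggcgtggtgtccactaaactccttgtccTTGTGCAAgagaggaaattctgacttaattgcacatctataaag
Ptgs2: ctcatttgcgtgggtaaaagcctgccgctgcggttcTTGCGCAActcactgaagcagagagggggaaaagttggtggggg

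Counted over windows, the interferon letters stood in 3.18% of those of all tested genes, in 18.0% (70 of 389) of genes called at least 2-fold higher (3.3% of all genes) and in 2.35% (50 of 2130) of genes called at least 2-fold lower (14.5%). They stood in 54.7% (29 of 53) of the windows of the antiviral lists described next and in 26.3% (5 of 19) of those of the MHC class I list. The C/EBP letters stood in 8.46% of all tested windows, 13.4% of the higher set and 7.04% of the lower set. The NF-kB letters, short and rich in G and C, stood in 65.4% of all tested windows and in 58.6% and 62.9% of the same sets. Of the 15 largest increases, 14 had a window, of which 7 held the interferon letters, 5 the C/EBP letters and 7 the NF-kB letters. A match describes the letters only, and not whether a factor binds there.

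Genes of the interferon system were mostly higher, from ligand to effector. Of 8 tested genes for ligands, receptors and their kinases, 8 rose and 0 fell (median 0.50), and the interferon alpha gene Ifna4 had too few counts to test. Ifnb1, the interferon beta gene, had 0 counts in wild type and 12 over the knockout libraries, at least 4.64-fold higher at the 3-count floor with a lower 95% counting limit of 2.40. The receptor gene Ifnar2 went from 116 and 114 CPM to 187 and 172 CPM (log2 0.65), and Tyk2, the receptor's kinase gene, rose by 0.50. With pan-leukocyte scaling 5 of these genes stayed called, and Ifnar1 was at 0.06 without a call. Among the 10 STAT and IRF genes, 9 rose and 1 fell (median 0.82). Stat2 (chromosome 10, 128270498 to 128292853), a subunit of the factor that type I interferon activates, was at 97.4 and 99.4 CPM in wild type and 336 and 343 CPM in the knockout (3.45-fold, SE 0.03 on the log2 scale, edgeR adjusted p = 7.3e-43). Its partner Irf9 rose by 0.86. Stat3, which transmits IL-6 family signals, was the member that fell (−0.24).

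All 10 genes for cytosolic RNA and DNA sensors rose, with a median of 0.62. Zbp1, a sensor of Z-form nucleic acid, was at 13.7 and 12.4 CPM in wild type and 58.2 and 56.4 CPM in the knockout (log2 2.14, SE 0.06). The RNA helicase genes Dhx58, Ddx58 and Ifih1 rose by 1.44, 1.35 and 1.14, whereas the adaptor genes Mavs and Sting1 differed by 0.21 and 0.14, and stood at −0.08 and −0.15 with pan-leukocyte scaling. Sting1 also lost its call without Cop1 KO library 2 (0.12), wild-type library 1 (0.14) or wild-type library 2 (0.13). In the IFIT and OAS group, which binds foreign RNA or makes oligoadenylate messengers, 13 of 14 rose and 0 fell, with the largest median of these lists (1.82). Oas2 was at 38.3 and 40 CPM against 160 and 156 CPM (2.01, SE 0.04).

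Of 18 MX and other antiviral effector genes 17 rose and 1 fell (median 1.58). Ifitm3, which blocks virus entry, was at 116 and 122 CPM in wild type and 448 and 438 CPM in the knockout (3.72-fold, SE 0.03 on the log2 scale), and Bst2, the tether of budding virions, went from 149 and 142 CPM to 413 and 394 CPM (log2 1.47). Ifi27 was the one that fell, by 0.60. Among guanylate-binding proteins and immunity-related GTPases, 12 of 16 rose and 0 fell (median 1.35). Gbp3 was at 8.89 and 9.02 CPM against 28.9 and 29.5 CPM (1.71, SE 0.07) and Ifi47 rose by 1.77, while Gbp6 and Gbp8 stood at −0.02 and −0.47 without a call. These families hold near-identical copies, so single members are uncertain. All 11 genes of ISG15 conjugation and interferon-induced PARPs rose (median 1.13). Isg15, the ubiquitin-like modifier gene, was at 14.8 and 15.6 CPM in wild type and 64.7 and 60.6 CPM in the knockout, and Usp18, which removes the modifier and restrains the interferon receptor, was at 9.33 and 11.2 CPM against 45.0 and 39.4 CPM. Parp14 rose by 1.54 and Uba7, the modifier's activating enzyme gene, by 1.21. With pan-leukocyte scaling the medians of the 4 lists were 1.53, 1.29, 1.06 and 0.84.

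MHC class I and class II genes parted. All 20 tested genes of class I and peptide loading rose, with a median of 0.99, and 18 stayed called with pan-leukocyte scaling. B2m, the light chain of class I molecules, went from 1404 and 1436 CPM to 2604 and 2689 CPM (log2 0.90, SE 0.03). The non-classical gene H2-T23 rose by 1.53, the immunoproteasome gene Psmb9 by 1.03 and Nlrc5, the class I transactivator gene, by 1.22 (47.8 and 50.1 CPM against 113 and 116 CPM). In the class II pathway 3 of 11 genes rose and 5 fell. Those that fell were Ciita, the class II transactivator gene (0.953 and 1.38 CPM against 0.405 and 0.353 CPM, not called on the authors' normalised values), the chain genes H2-Aa, H2-Ab1 and H2-Eb1, and Cd74, the invariant chain gene. Cd74 was at 34.1 and 33.5 CPM in wild type and 22.1 and 19.2 CPM in the knockout (log2 −0.71, SE 0.07, edgeR adjusted p = 1.8e-12). Ctss, whose protease trims the invariant chain, rose by 0.59. The median of the class II list was 0.05, and −0.24 with pan-leukocyte scaling. The class I heavy chain genes resemble each other in parts and are uncertain one by one.

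**Figure D3:**
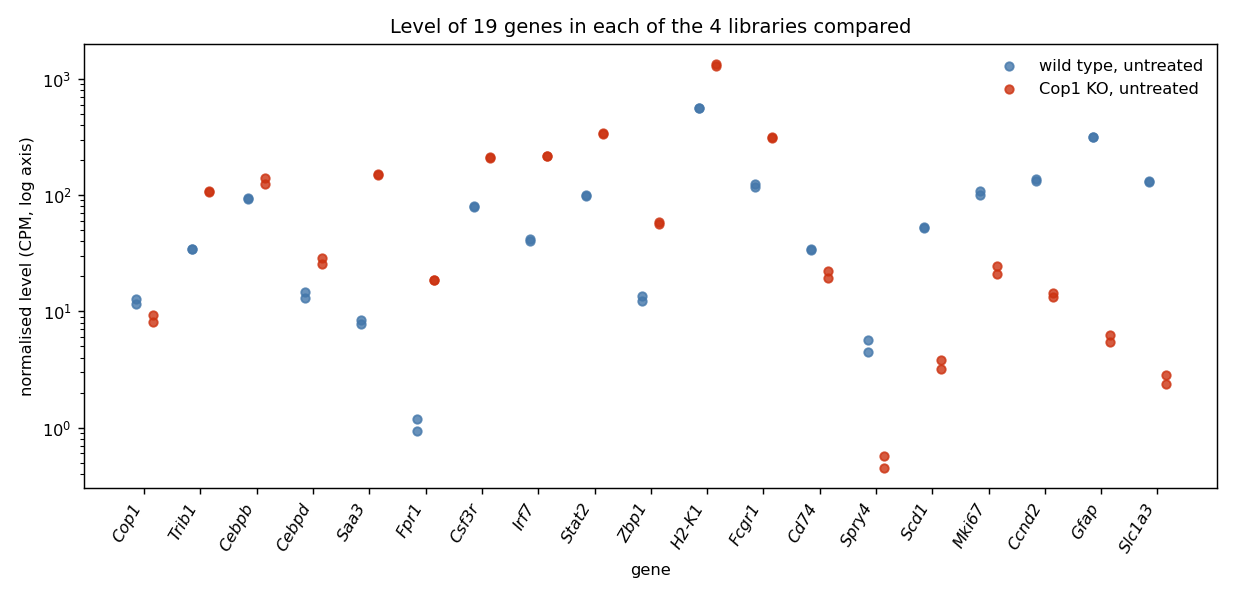
Level in CPM (log axis) of 19 genes in each of the 4 libraries, wild type in blue and Cop1 KO in red. The 2 libraries of a group lie close together for each gene. The groups are apart for all 19, including Cop1 at 12.7 and 11.5 CPM against 8.06 and 9.23 CPM. These genes were picked for display, and over all genes tested the groups were apart for 37.9% in the higher and 39.5% in the lower direction.

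Acute-phase and granule genes could be tested only in part: 7 of 20 had enough counts, 6 of them rose and 0 fell, and the other 13 had too few counts, among them the neutrophil granule genes Elane, Mpo and Ngp at 0 in all 4 libraries. Hp, the haptoglobin gene, was at 0.595 and 0.559 CPM in wild type and 5.72 and 6.58 CPM in the knockout (log2 3.40, SE 0.30). Lcn2, a siderophore-binding acute-phase gene, stood at −0.22 without a call. With pan-leukocyte scaling 4 genes of this list rose and 1 fell, Lcn2 at −0.51. Of 10 neutrophil markers, 6 were at 0 in all 4 libraries (Ly6g, S100a9, Mpo, Elane, Ngp and Retnlg), and their summed level, 79.8 and 81.3 CPM in wild type against 214 and 209 CPM in the knockout, came almost wholly from Csf3r. Csf3r (chromosome 4, 126023441 to 126044975), the receptor gene for granulocyte colony-stimulating factor, was at 79.5 and 81.0 CPM against 213 and 208 CPM (2.62-fold, log2 1.39, SE 0.04). It led the 9 colony-stimulating factor genes, of which 5 rose and 2 fell (median 0.42). All 5 that rose encode receptor chains, with Csf1r at 0.89 and Csf2ra at 0.59. The ligand genes Csf1 and Il34 were lower, Csf1 from 35.4 and 35.0 CPM to 17.7 and 19.1 CPM (−0.93, SE 0.06). Il34 (−1.80) lost its call without Cop1 KO library 1 (−1.06) or wild-type library 1 (−1.23), which left 1 gene of the list lower. Csf2 and Csf3 stood at 0.00 and 0.11 without a call.

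Of 12 tested genes for chemoattractant receptors 8 rose and 2 fell (median 0.51), or 7 rose and 4 fell with pan-leukocyte scaling. Fpr2, a near relative of Fpr1 whose reads could be shared with it, was at 0.357 and 0.634 CPM in wild type and 7.74 and 6.97 CPM in the knockout. Cxcr4, the receptor gene for CXCL12, went from 175 and 180 CPM to 316 and 322 CPM (log2 0.85), and the complement receptor gene C3ar1 rose by 0.66. The CC chemokine receptor genes Ccr1 and Ccr2 fell, Ccr1 from 62.5 and 62.4 CPM to 29.1 and 30.4 CPM (−1.07, SE 0.06), and Ccr2, at −0.92, was not called with DESeq2 (−0.83). In the TNF superfamily 12 of 17 tested genes rose and 2 fell (median 0.78, and 0.49 with pan-leukocyte scaling), and 1 fell without Cop1 KO library 1 or wild-type library 2. Tnfrsf1b, the second TNF receptor gene, went from 730 and 729 CPM to 1217 and 1221 CPM (0.74, SE 0.03), the death ligand gene Tnfsf10 from 2.34 and 2.05 CPM to 4.82 and 4.19 CPM (1.04, SE 0.17), and Tnfrsf12a, the TWEAK receptor gene, fell by 0.74.

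Interleukin 1 family genes divided into 3 higher and 3 lower of 9 tested (median 0.23, or −0.05 with pan-leukocyte scaling). Il1b, which encodes the secreted cytokine, was at 7.70 and 9.62 CPM in wild type and 12.5 and 14.5 CPM in the knockout (log2 0.64, SE 0.08), and Il18 rose by 0.48 (0.19 without a call after pan-leukocyte scaling). Il1rn, the gene of the receptor antagonist, was at 119 and 123 CPM against 37.8 and 41.5 CPM. Il1r1, the signalling receptor gene, was at 7.66 and 8.65 CPM against 0.495 and 0.441 CPM (−4.11, SE 0.33). Il33, an alarmin gene of glia, had 15 counts over the wild-type libraries and 0 in the knockout, at least 4.31-fold lower against 3 counts (lower 95% limit 2.41), and was not called on the authors' normalised values. The astrocyte marker sum went from 806 and 810 CPM to 56.7 and 52.4 CPM in these libraries, and its part in the Il1r1 and Il33 values was not tested.

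Receptors by which microglia take up and sense particles were mostly higher. All 8 tested genes for Fc receptors and their signalling chains rose (median 0.60). Fcgr1, the high-affinity IgG receptor gene, was at 125 and 118 CPM in wild type and 316 and 307 CPM in the knockout (2.57-fold, log2 1.36, SE 0.03). The inhibitory receptor gene Fcgr2b rose by 1.23 and the activating Fcgr4 by 1.13, more than Fcgr3 (0.54) and the signalling genes Fcer1g (0.67) and Syk (0.14, or −0.15 with pan-leukocyte scaling). Among 10 tested C-type lectin genes 7 rose and 3 fell (median 0.43). With median-of-ratios factors 7 rose and 1 fell, and with pan-leukocyte scaling 5 rose and 4 fell. Clec4d, a receptor gene for mycobacterial glycolipid, went from 384 and 376 CPM to 961 and 989 CPM (1.36, SE 0.03), its relative Clec4e from 2.82 and 4.4 CPM to 9.81 and 10.8 CPM (2.84-fold), and Clec4n rose by 1.09. Mrc1, the mannose receptor gene, fell from 262 and 271 CPM to 128 and 132 CPM (−1.04, SE 0.04).

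Scavenger and efferocytosis genes had 8 of 15 higher and 1 lower (median 0.29, or 0.01 with pan-leukocyte scaling). Stab1 was at 1955 and 1927 CPM in wild type and 3887 and 3766 CPM in the knockout (log2 0.98), Marco at 0.913 and 0.895 CPM against 4.46 and 4.11 CPM (2.24, SE 0.23), and the bridging molecule genes Mfge8 and Gas6 rose by 0.61 and 0.51. Cd36, a fatty acid and oxidised lipoprotein receptor gene, was the member that fell, from 2114 and 2088 CPM to 1078 and 1090 CPM (−0.95, SE 0.03). Of 16 tested Toll-like receptor genes and co-receptors 11 rose and 0 fell (median 0.48, or 7 higher and 2 lower with pan-leukocyte scaling). Tlr2, the sensor gene for bacterial lipoproteins, was at 75.8 and 75.3 CPM against 209 and 206 CPM (2.75-fold, SE 0.04 on the log2 scale), Unc93b1, the chaperone gene of endosomal receptors, rose by 0.97, and Tlr4 differed by 0.21 and was at −0.08 with pan-leukocyte scaling. Tlr4 lost its call without Cop1 KO library 2 (0.13) or wild-type library 2 (0.17). In the inflammasome and cell death list 10 of 13 rose and 1 fell (median 0.32): Nlrp3 went from 31.2 and 30.8 CPM to 61.5 and 62.7 CPM (101% higher), Casp4 rose by 0.85 and Gsdmd by 0.66, and Ripk3, the necroptosis kinase gene, fell by 0.68. With pan-leukocyte scaling 4 of this list rose and 3 fell.

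**Figure D4:**
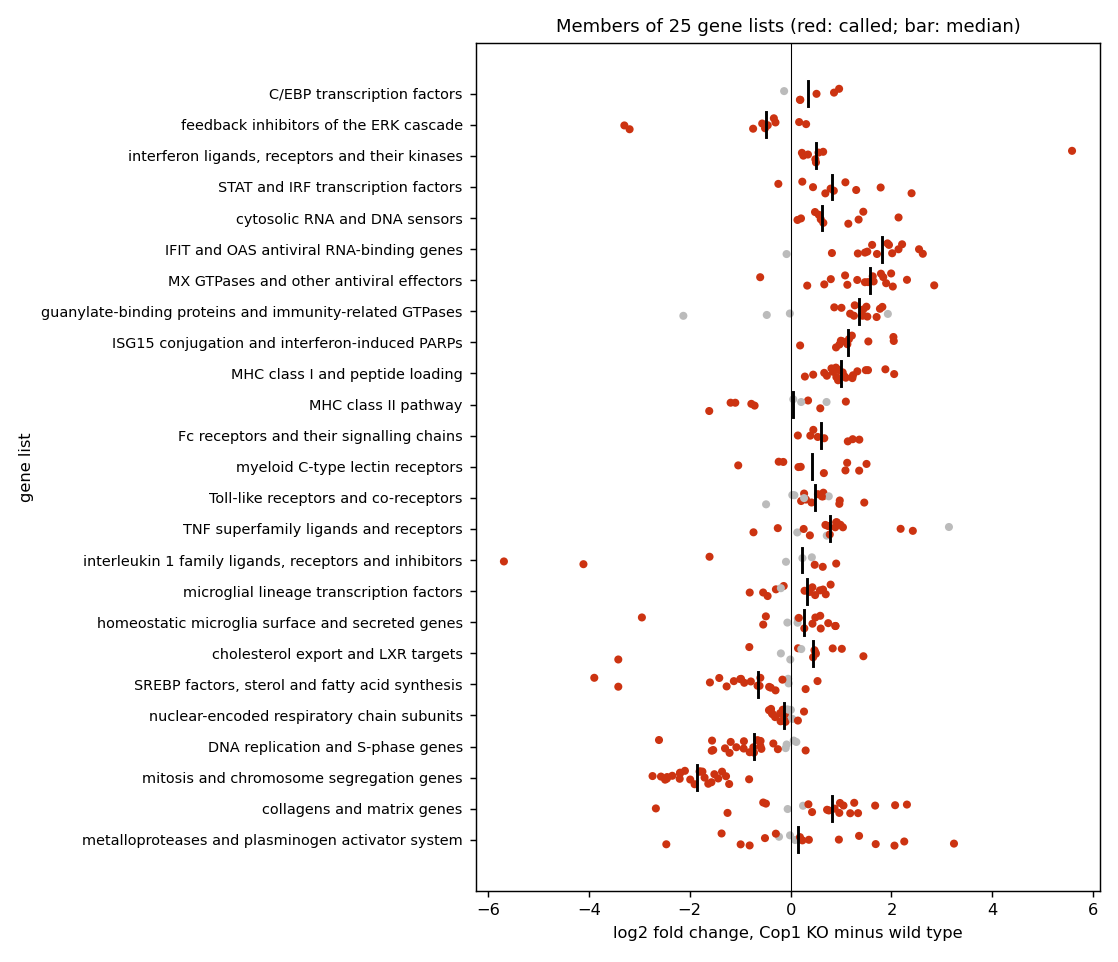
Log2 fold change (Cop1 KO minus wild type) of each tested member of 25 gene lists, called members in red, others in grey, with a bar at each list's median. The medians of the antiviral, MHC class I and Fc receptor lists lie to the right of 0 and those of the mitosis, DNA replication and sterol lists to the left, with single members on the other side in several of them, and the called members of the class II, microglial factor and protease lists are spread on both sides.

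Microglial identity genes did not move as one. Of 14 lineage transcription factor genes 8 rose and 5 fell (median 0.33, or 0.04 with pan-leukocyte scaling), and 3 fell without wild-type library 2. Spi1, which encodes the master factor PU.1, was at 299 and 296 CPM in wild type and 475 and 453 CPM in the knockout (log2 0.64, SE 0.03), Irf8 rose by 0.79, and Sall1, the factor that sets microglia apart from other macrophages, went from 11.4 and 10.8 CPM to 16.7 and 16.6 CPM (0.58, SE 0.10). Bhlhe40 and its paralogue Bhlhe41, repressors that act on lipid and lysosome genes in microglia, fell by 0.81 and 0.46, Bhlhe40 from 97.9 and 97.8 CPM to 55.1 and 56.5 CPM. Among 15 tested surface and secreted genes of resting microglia 9 rose and 3 fell (median 0.27, or −0.02 with pan-leukocyte scaling). Cx3cr1, the fractalkine receptor gene, rose by 0.89, and Adgrg1, an adhesion receptor gene also used by neural precursors, fell from 35.7 and 40.3 CPM to 4.77 and 5.08 CPM (−2.95, SE 0.12). Neuron and astrocyte sums were lower in the same libraries, and their part in the Adgrg1 value was not tested.

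The 20 genes of disease-associated microglia had 10 higher and 7 lower with TMM factors (median 0.08), and 6 higher and 12 lower with pan-leukocyte scaling (median −0.20). Ch25h, which makes 25-hydroxycholesterol, was at 16.9 and 17.8 CPM against 46.2 and 48.0 CPM (log2 1.44, SE 0.06), Cst7, a cystatin gene, rose by 1.27 and Apoe by 0.83. Lpl, lipoprotein lipase, and Spp1, osteopontin, are on the same list and fell by 0.51 and 0.36. TGF-beta pathway genes, on which microglia depend, had 7 of 16 higher and 5 lower (median 0.11, or −0.18 with 3 higher and 9 lower after pan-leukocyte scaling). Tgfbr2 and Smad3, the receptor and signal transducer genes, rose by 0.52 and 0.80. Itgb8, the integrin subunit that frees TGF-beta from its latent form, was at 14.2 and 14.6 CPM in wild type and 0.0901 and 0.132 CPM in the knockout, Tgfb2 was at 13.2 and 14.3 CPM against 1.08 and 0.662 CPM, and Lrrc32, a latent TGF-beta anchor gene, fell by 0.99. Of 11 purinergic genes 5 rose and 5 fell, or 3 fell without Cop1 KO library 1 or wild-type library 1 (median −0.14). With library sizes alone and with pan-leukocyte scaling 2 rose and 5 fell (medians −0.33 and −0.42). The ATP-gated channel gene P2rx4 rose by 0.59 and Adora1, the A1 adenosine receptor gene, fell from 13.4 and 13.3 CPM to 1.53 and 1.41 CPM (−3.18, SE 0.20). The astrocyte sum moved with Itgb8, Tgfb2 and Adora1, and its part was not tested.

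Lipid synthesis genes were mostly lower while cholesterol export genes were mostly higher. Of 21 tested genes for SREBP factors and for sterol and fatty acid synthesis 2 rose and 17 fell (median −0.66, and −0.57 with median-of-ratios factors). Scd1 (chromosome 19, 44394450 to 44407709), a stearoyl-CoA desaturase gene, was at 51.8 and 53.0 CPM in wild type and 3.83 and 3.22 CPM in the knockout (14.9-fold lower, SE 0.12 on the log2 scale, edgeR adjusted p = 1.2e-37). Its neighbour Scd2 went from 279 and 278 CPM to 26.1 and 26.0 CPM (log2 −3.42, SE 0.05), and Fasn, fatty acid synthase, from 115 and 111 CPM to 60.5 and 58.9 CPM (−0.92). The 2 that rose were Fdft1, squalene synthase (0.53, with 18.3% of its exonic bases shared with Ctsb), and Srebf1, the SREBP1 factor gene (0.30, or 0.01 with pan-leukocyte scaling). Among 13 LXR target and export genes 8 rose and 2 fell (median 0.45, or 0.16 with pan-leukocyte scaling). Abca1, the cholesterol exporter gene, went from 354 and 356 CPM to 498 and 488 CPM (0.47), and Apoc1 fell by 0.82. Astrocytes are known to make sterols, their marker sum was lower in the knockout, and its part in these decreases was not tested.

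Iron handling genes had 8 of 12 higher, or 5 without wild-type library 2, and 2 lower (median 0.18, or −0.10 with 4 higher and 5 lower after pan-leukocyte scaling). The ferritin heavy chain gene Fth1 rose by 0.54, and Slc11a1, the phagosomal metal transporter gene, by 0.65, whereas Tfrc, the transferrin receptor gene, went from 55.3 and 56.6 CPM to 30.4 and 31.8 CPM (log2 −0.85, SE 0.06). For oxidant and nitric oxide genes 8 of 11 rose and 1 fell (median 0.51), or 2 fell without Cop1 KO library 1 or wild-type library 2: Cybb, the NADPH oxidase catalytic subunit gene, rose by 0.91 and Ncf1 by 0.71. Acod1, which makes itaconate, was at 4.76 and 4.06 CPM against 23.6 and 24.1 CPM (2.44, SE 0.08). Nos2, inducible nitric oxide synthase, was at 0.913 and 0.447 CPM against 0.36 and 0.53 CPM, overlapping between groups, and was called lower only without wild-type library 2 (−1.02) or with pan-leukocyte scaling (−0.87). Glycolysis genes had 7 of 20 higher and 9 lower, 9 higher and 5 lower with median-of-ratios factors and 2 higher and 15 lower with pan-leukocyte scaling, so no direction holds for the list under all of these. Within it, Hk2, a hexokinase gene, went from 64.6 and 66.1 CPM to 117 and 118 CPM (0.84, SE 0.04), and the glucose transporter genes parted, Slc2a6 at 0.94 and Slc2a3 at −1.77. Nuclear-encoded respiratory chain genes had 2 of 22 higher and 14 lower, with a small median of −0.12. The number lower was 6 with median-of-ratios factors (median −0.04), 20 with library sizes alone (−0.32) and 21 with pan-leukocyte scaling (−0.41). Leaving out Cop1 KO library 1, wild-type library 1 or wild-type library 2 gave 9, 8 and 9 lower. Atp5b, an ATP synthase subunit gene, fell by 0.43.

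Genes of cell division were mostly lower. All 24 mitosis genes fell, with a median of −1.85, and all 24 fell under each of the other 3 scalings of the counts. Bub1, a spindle checkpoint kinase gene, was at 13.4 and 13.4 CPM in wild type and 2.25 and 1.77 CPM in the knockout (log2 −2.74, SE 0.18). Plk1 and Ccnb2 fell by 2.45 each, Foxm1, the factor that drives this program, by 1.99, and Mad2l1 least of all, by 0.82. Of 24 DNA replication and S-phase genes 19 fell and 1 rose (median −0.73). Mcm5, a helicase subunit gene, went from 33.3 and 33.6 CPM to 13.7 and 13.4 CPM (−1.30, SE 0.08), and Pole fell by 1.53. The one that rose, Cdt1, which licenses origins, was at 0.30, and at 0.01 with pan-leukocyte scaling.

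Cyclin and CDK inhibitor genes were mixed, 3 of 10 higher and 4 lower, with a median of 0.10 (−0.09 with library sizes alone). Ccnd2 (chromosome 6, 127125162 to 127152188), the cyclin D2 gene, was at 131 and 138 CPM in wild type and 13.4 and 14.3 CPM in the knockout (9.73-fold lower, SE 0.06 on the log2 scale, edgeR adjusted p = 3.5e-46). Ccnd1 fell by 0.49, with 23.4% of its exonic bases shared with another gene. The inhibitor genes Cdkn1a (305 and 303 CPM against 437 and 429 CPM, log2 0.51), Cdkn2a (0.90) and Cdkn2b (0.56, or 0.27 without a call after pan-leukocyte scaling) rose, and Cdkn2c fell by 1.26. The astrocyte, oligodendrocyte lineage and neuron marker sums were lower in the same libraries, and their part in the decreases of cell division genes was not tested.

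Matrix genes were mostly higher. Of 20 tested collagen and matrix genes 14 rose and 4 fell (median 0.81, or 0.53 with pan-leukocyte scaling). Bgn, a small proteoglycan gene, was at 8.29 and 8.39 CPM in wild type and 40.2 and 42.4 CPM in the knockout (4.94-fold, log2 2.31, SE 0.09). Col1a1 went from 27.4 and 25.8 CPM to 66.1 and 61.5 CPM (1.26, SE 0.06), and Col3a1 rose by 1.68. Vcan, a large proteoglycan gene, fell from 19.9 and 19.4 CPM to 3.02 and 3.13 CPM (−2.67, SE 0.13), and Fn1, fibronectin, fell by 0.49. Fibroblast and mural markers mostly rose in the same libraries: Pdgfrb was at 1.15 and 0.597 CPM against 2.75 and 3.05 CPM, and Acta2 rose by 0.81. Pdgfra, on the same marker list, fell, as given above. The matrix and marker lists share 4 genes (Col1a1, Col1a2, Col3a1 and Dcn). The part of fibroblast and mural cells in the matrix result was not tested.

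Metalloprotease and plasminogen activator genes had 9 of 18 higher and 6 lower (median 0.14, or −0.15 with 6 higher and 8 lower after pan-leukocyte scaling). Timp1, a metalloprotease inhibitor gene, went from 7.10 and 6.45 CPM to 32.9 and 31.7 CPM (log2 2.25, SE 0.10). Mmp3, stromelysin 1, was at 0.476 and 0.559 CPM against 4.82 and 5.08 CPM (3.24, SE 0.31), and Adam8, a sheddase gene of myeloid cells, rose by 0.96. The activator genes fell: Plau, urokinase, went from 1366 and 1362 CPM to 687 and 685 CPM (−0.99, SE 0.03), and Plat fell by 2.46. Mmp12, macrophage elastase, fell by 0.81. Timp3 fell by 1.37, with 21.3% of its exonic bases shared with Syn3.

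Growth factor genes had 7 of 17 tested higher and 5 lower, or 3 lower without Cop1 KO library 2 (median 0.21, or −0.07 with pan-leukocyte scaling). Hbegf, an EGF receptor ligand gene, was at 34.0 and 32.4 CPM in wild type and 8.42 and 7.24 CPM in the knockout (log2 −2.08, SE 0.09), and Vegfa went from 39.3 and 40.2 CPM to 17.0 and 17.4 CPM (−1.21, SE 0.08). Osm, oncostatin M, rose by 0.73. In the prostaglandin and leukotriene pathway 5 of 14 genes rose and 3 fell, and 4 rose and 8 fell with pan-leukocyte scaling (medians 0.03 and −0.26). The steps of prostaglandin E2 were among those that rose: Ptgs2 from 7.26 and 8.13 CPM to 15 and 17.1 CPM (1.06, SE 0.08), Ptges, its terminal synthase gene, from 2.50 and 2.50 CPM to 10.9 and 10.8 CPM (2.12, SE 0.14), and the receptor gene Ptger2 by 1.28. Ptgs1, the constitutive cyclooxygenase gene, fell by 0.53.

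Unfolded protein and integrated stress response genes had 10 of 16 higher and 1 lower (median 0.18; 2 lower without Cop1 KO library 1), but 2 higher and 8 lower with pan-leukocyte scaling (median −0.10). Ddit3 and Herpud1 rose by 0.86 and 0.52 and kept their call there (0.57 and 0.23), and Asns, asparagine synthetase, fell by 0.58. NRF2 target genes had 5 of 13 higher and 5 lower (median 0.05), and 3 higher and 8 lower both with library sizes alone (median −0.14) and with pan-leukocyte scaling (median −0.24). Slc7a11, the cystine transporter gene, rose by 0.74, and Txnrd1 and Me1 fell by 0.40 and 0.91. Across the lists, the antiviral, MHC class I, Fc receptor, TNF superfamily and matrix lists kept a positive median under all 4 scalings of the counts. The mitosis, DNA replication, sterol and ERK feedback lists kept a negative one. These are not all the lists that kept their sign: the STAT and IRF list also stayed positive and the respiratory chain list negative.

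**Figure D5:**
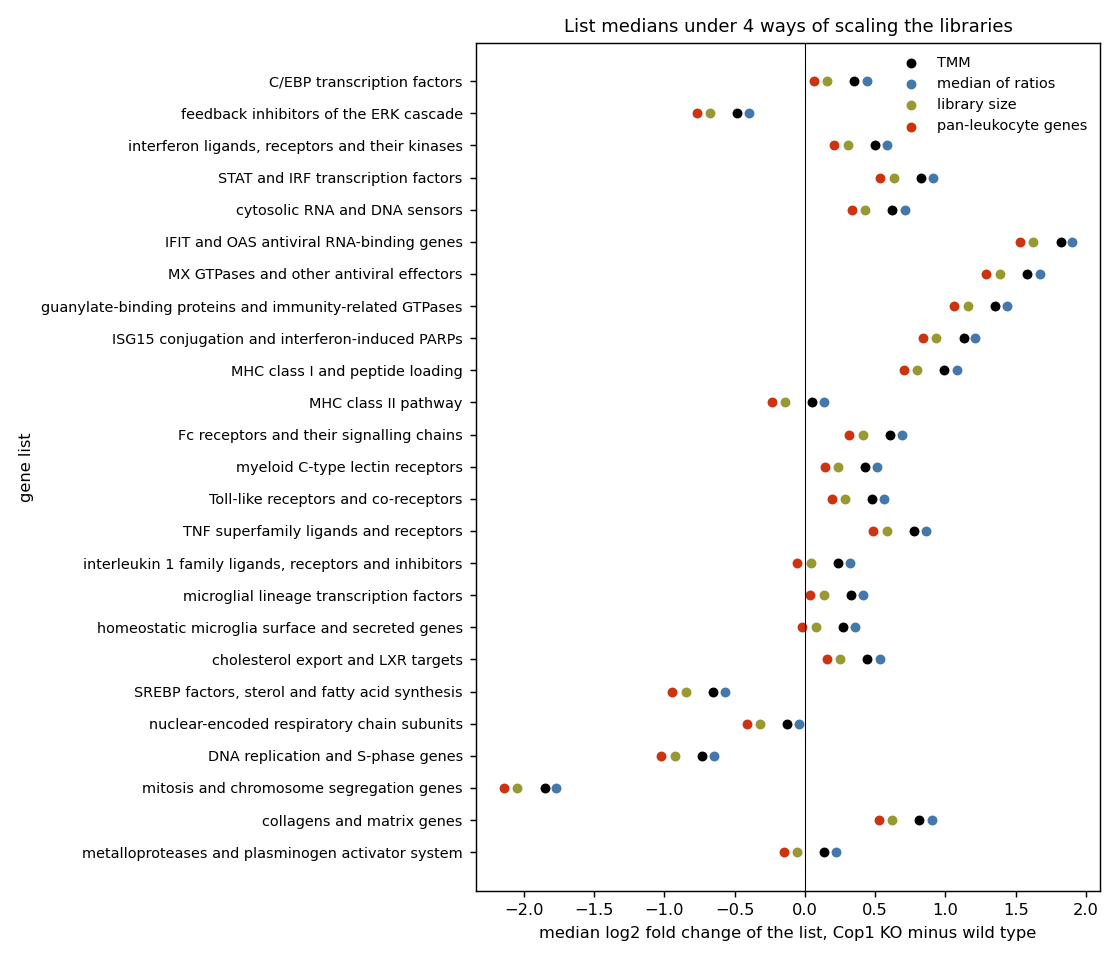
Median log2 fold change (Cop1 KO minus wild type) of 25 gene lists with libraries scaled by TMM, by median of ratios, by library size and on pan-leukocyte genes. The lists shift together between scalings, and lists near 0, such as the class II, protease and interleukin 1 lists, change sign.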

How the data were processed

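Polyadenylated RNA was sequenced from unstranded TruSeq libraries, per the labels' protocols. Reads were aligned with GSNAP to GRCm38, per the submitters' processing notes; neither its version nor the annotation release is stated there. Each deposited count is the number of uniquely aligned reads of a gene, per the file headers, so genes rich in pseudogenes are undercounted. Exon overlap with other annotated genes is given above for only some of the named genes that have it. Others with overlap include Gbp6 (29.0% of exonic bases), Arhgef26 (21.6%), Adora1 (20.1%), Bhlhe41 (19.0%) and Spp1 (18.8%). The authors also deposited normalised RPKM (nRPKM), in which, per the file headers, every sample has its own size factor.

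Of 36528 Entrez identifiers, 31045 took names from RefSeq, 81 from GENCODE and 5402 had none (1.07% to 1.30% of the counts of a library). Counts were fitted with edgeR 4.0.16 in R 4.3.3 (filterByExpr, TMM, glmQLFit, glmQLFTest) over all 6 libraries, with 3 residual degrees of freedom, common dispersion 0.00073, Benjamini-Hochberg adjustment over 15585 genes and a threshold of 0.05. DESeq2 1.42.0 and limma 3.58.1 (log2 of nRPKM plus 1), other scalings, no low-count filter, the 4 libraries alone and leaving out each library were alternatives. The fit was tested on simulated data. Tables were joined with Python 3.11.15. Replicate pairs differed by more than counting noise (chi-square per degree of freedom 1.598 in wild type, 1.995 in the knockout and 2.568 in the LPS-treated wild type). Counting limits cover counting error only. The labels give no pairing or batch.

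The text names Cop1, Cebpb, the 15 largest increases and decreases (called, mean at least 5 CPM, groups apart, named models), the 10 genes on each side of Cop1, and in each list up to 4 members by smallest p, every called member against the majority and further members at will. Some members that this rule takes are not reported here. The comparison, lists and members were chosen with earlier results of these data known.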

Additional observations from a re-analysis of the deposited data

How the results depend on the processing

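Scaling moved the balance of calls most. Against 4374 genes called higher and 4727 lower, library sizes alone gave 2319 and 7200 and pan-leukocyte scaling 1619 and 8610. Lists with more members lower than higher went from 9 to 18 and 20 under the same settings. Genes called at least 2-fold higher went from 514 to 285 with pan-leukocyte scaling and 240 on the log2 of nRPKM plus 1, where those at least 2-fold lower went from 2267 to 488. Of 210 genes named and called, 189 kept call and direction in every alternative and 21 lost the call in at least 1, of which 7 also changed sign in at least 1. With library sizes alone Cebpa was at −0.000366, Cebpg −0.00813, Dusp6 −0.0237, Sting1 −0.0564, Syk −0.0494 and, not called with TMM, Jun −0.13. With pan-leukocyte scaling Cebpa was at −0.10, Cebpg −0.10, Dusp6 −0.12, Mavs −0.0828, Sting1 −0.15, Syk −0.15, Tlr4 −0.0797 and Jun −0.22. Leaving out each library in turn gave 3583 to 3886 genes called higher and 4022 to 4296 lower. At a 4-fold minimum the NF-kB letters stood in 45.8% of windows of higher genes, against 58.6% at 2-fold. Adding 1 to nRPKM shrinks fold changes of low values by construction, and its share in the counts of 240 and 488 was not tested. The cause of the other shifts was not tested. No paired analysis was possible because the labels give no replicate numbers.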
